A study of Mus musculus with 8 samples.

Results

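The genes described here encode the enzymes that place or remove DNA methylation and that methylate lysine 27 or lysine 9 of histone H3. They are the DNA methyltransferases *Dnmt1*, *Dnmt3a* and *Dnmt3b*, the methylcytosine oxidases *Tet1*, *Tet2* and *Tet3*, the H3K27 methyltransferases *Ezh1* and *Ezh2*, and the H3K9 methyltransferases *Suv39h1* and *Suv39h2*. They were chosen by gene symbol and are 10 of the 47493 genes in the expression table. All 10 had a mean of at least 1 FPKM (fragments mapped to a gene, scaled to its transcript length and to the library's total) over the 8 libraries and were tested.

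RNA sequencing compared endogenous CD8+ T cells with high surface IL-18Rα to the cells left when these were removed, in tumor-bearing mice given adoptive T-cell therapy. The animals were female C57BL/6 mice of 6 to 8 weeks that received 200000 B16-F10 melanoma cells on day 0, cyclophosphamide at 300 mg/kg on day 3, and 2000000 Pmel-1 T cells on day 5. IL-2 at 10000 IU was given for 3 days, and 200 μg of anti-CD4 antibody was given weekly for 3 weeks from day 10. On day 25, the Thy1.1-negative CD8+ T cells of lymph node and spleen, which are the host's own and not the transferred cells, were passed over a magnetic column. The cells held through IL-18Rα are the IL-18Rαhi fraction, and the flow-through is the control. Both fractions came from each of 4 mice and carried every treatment, so the data hold no untreated group. Magnetic enrichment is not a pure sort.

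DNMT1 copies methylation onto the new DNA strand after replication, whereas DNMT3A and DNMT3B methylate sites that were unmethylated. TET enzymes oxidize methylcytosine and start its removal. EZH2 and EZH1 are alternative catalytic subunits of Polycomb repressive complex PRC2, EZH2 being typical of dividing cells and EZH1 of resting cells, and the SUV39H enzymes make the H3K9 trimethylation of heterochromatin. In CD8+ T cells DNMT3A, EZH2 and SUV39H1 are known for silencing naive and memory genes as effector cells form.

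IL-18Rα expression matched the labels, and other cell types moved with the fraction. *Il18r1*, which encodes IL-18Rα, was at 30.6 ± 6.96 FPKM in flow-through libraries and 110.8 ± 3.87 in IL-18Rαhi libraries (SD, n = 4 mice each), a log2 difference of 1.85 (SE 0.15, limma adjusted p = 0.00029). *Cd8a* was at 179.2 FPKM or more in every library. The depth, estimated from the smallest FPKM steps, was 14200000 to 17800000 fragments. Flow-through replicate 1 stood apart, with the lowest sum over 8 T-cell identity genes (1321 FPKM, against 2108 to 2714 in the other 7 libraries) and the highest sum over 15 erythroid progenitor genes (3879 FPKM, against 254 to 2031). The T-cell identity sums also separated the fractions, at 1321 to 2500 in flow-through libraries and 2529 to 2714 in IL-18Rαhi libraries. Of the 8 T-cell identity genes, 6 were higher without overlap, against 16.4% of all genes, and 1 passed the test. Of those erythroid genes, 8 were lower in the IL-18Rαhi fraction, none was at 0 in any library, and the sums ran from 1225 to 3879 in flow-through libraries and from 254 to 1114 in IL-18Rαhi libraries. Of the other marker lists, 7 of 10 myeloid, 5 of 8 natural killer, 4 of 5 CD4 and regulatory T-cell, 5 of 9 γδ, NKT and MAIT-cell and 1 of 7 plasma-cell genes were higher, and no tested gene of the B-cell (6) or granulocyte progenitor (9) lists passed. Of all genes, 14.1% were higher and 13.7% lower. With the fractions compared within each mouse (the mouse as a block), 14 of 15 erythroid genes were lower and 7 of 7 plasma-cell genes higher. In that fit 9 of 10 myeloid, 7 of 8 natural killer, 5 of 5 CD4 and regulatory T-cell and 8 of 9 γδ, NKT and MAIT-cell genes were higher. The B-cell and granulocyte progenitor lists each had 1 higher and 1 lower, against 22.2% and 22.7% of all genes. In bulk RNA, fewer cells of a type and less RNA per cell cannot be told apart.

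Among the 10 genes, *Ezh1* was the 1 that rose and *Dnmt3b* the 1 that fell in the IL-18Rαhi fraction. Across all 12166 genes tested, 14.1% rose and 13.7% fell, so these counts stood near the background. Fractions that share a number in the labels were taken as 1 mouse. With the mouse as a block, 4 rose (*Dnmt1*, *Ezh1*, *Ezh2* and *Tet2*) and 2 fell (*Dnmt3b* and *Suv39h2*), against 22.2% and 22.7% of all genes. The libraries of the fractions did not overlap for *Ezh1*, higher, and *Dnmt3b*, lower, whereas 16.4% of all genes were higher and 15.9% lower without overlap. The median log2 difference of the 10 genes was 0.10, against -0.02 over all genes.

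When each library was scaled to its T-cell identity genes instead of its total, the median of all genes moved to -0.37. On that scale 0 of the 10 genes rose and *Dnmt3b* fell, against 4.17% and 12.0% of all genes. At an unadjusted p under 0.05 in that limma fit, 0 of the 10 were higher and 2 lower. With the mouse as a block on the T-cell scale, 0 rose and 2 fell (*Dnmt3b* and *Suv39h2*), against 4.75% and 22.2%, and the unadjusted counts were also 0 and 2. The log2 differences of *Dnmt1*, *Dnmt3a*, *Tet2*, *Tet3* and *Ezh2* were below 0 on that scale. Without mouse 1, whose flow-through library had a T-cell scaling factor of 0.572, the median of all genes in the blocked fit on that scale was -0.17. *Dnmt1* (0.23), *Tet2* (0.07), *Tet3* (0.0076) and *Ezh2* (0.08) were then above 0 and *Dnmt3a* was at -0.027, and none of the 5 passed (limma adjusted p = 0.117 to 0.963).

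**Figure D1:**
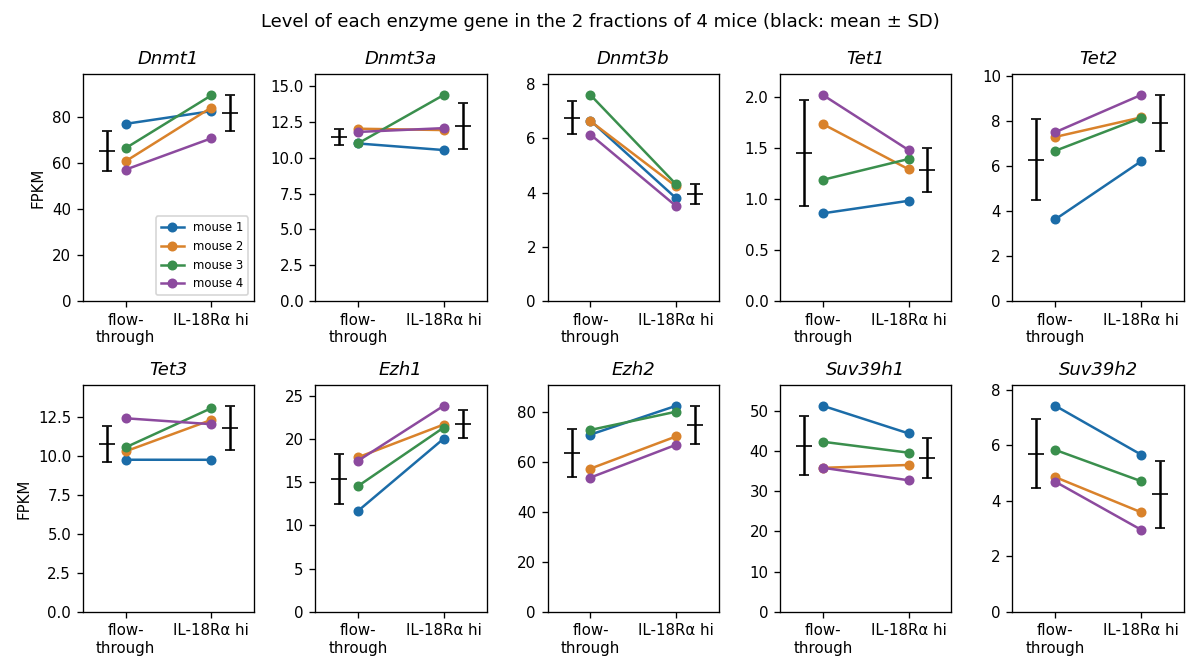
FPKM of each of the 10 genes in the flow-through and the IL-18Rαhi fraction, with a line joining the libraries of each mouse and the mean ± SD beside them. The lines for Dnmt3b fall in all 4 mice without overlap of the fractions, and those for Ezh1 rise in all 4.

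The upstream sequences of both genes called without the block are shown, since these carry the clearest differences. Each is the 250 bases before a RefSeq start in GRCm38.p6 and lies outside the annotated gene. *Dnmt3b* is on the plus strand (chr2:153649199-153649448) and *Ezh1* on the minus strand (chr11:101226464-101226713), and each is written 5′ to 3′ along its gene. Capitals mark a cell cycle homology region (CHR) word.
Dnmt3b: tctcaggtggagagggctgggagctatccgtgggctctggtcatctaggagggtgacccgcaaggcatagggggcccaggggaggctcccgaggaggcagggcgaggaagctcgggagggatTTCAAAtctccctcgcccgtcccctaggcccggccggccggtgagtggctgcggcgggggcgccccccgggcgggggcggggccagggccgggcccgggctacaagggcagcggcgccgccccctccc
Ezh1: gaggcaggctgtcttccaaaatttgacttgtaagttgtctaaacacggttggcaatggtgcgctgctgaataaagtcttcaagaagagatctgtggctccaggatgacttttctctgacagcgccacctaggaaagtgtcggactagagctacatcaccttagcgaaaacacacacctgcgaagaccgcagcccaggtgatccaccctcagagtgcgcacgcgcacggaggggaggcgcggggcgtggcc

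The windows of the 10 genes, 15 in all since some genes have several starts, were searched on both strands for the CHR words TTTGAA and TTCGAA and for the E2F words TTTCCCGC, TTTCGCGC, TTTGCCGC and TTTGGCGC. A CHR word was in 2 of the 15 windows, that of *Dnmt3b* and 1 of *Dnmt1*, against 17.1% of all 32851 windows. An E2F word was in 2 windows, 1 of *Dnmt1* and 1 of *Suv39h1*, against 1.86% of all. The *Ezh1* window held neither. CpG dinucleotides numbered 21 in the *Dnmt3b* window and 14 in the *Ezh1* window, within a range of 2 to 51 over the 15 windows and against a median of 6 over all. A match is a description of letters, and gene-level FPKM do not tell which start was used.

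*Dnmt3b*, a de novo methyltransferase on chromosome 2 (mm10, 153649450 to 153687730, plus strand), was lower in the IL-18Rαhi fraction of every mouse. Its flow-through FPKM were 6.66, 6.63, 7.60 and 6.14 in mice 1 to 4, and its IL-18Rαhi FPKM were 3.79, 4.23, 4.30 and 3.50. The highest IL-18Rαhi library lay below the lowest flow-through library. The means were 6.76 ± 0.610 and 3.95 ± 0.378, and the log2 difference was -0.65 (SE 0.10, limma adjusted p = 0.0030). The erythroid sums fell with it, and their part was not tested.

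**Figure D2:**
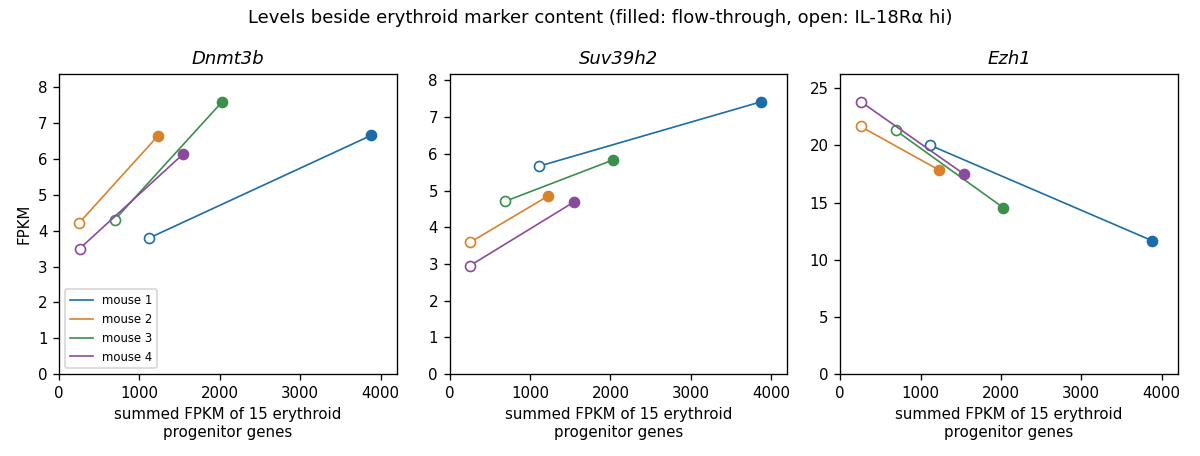
FPKM of Dnmt3b, Suv39h2 and Ezh1 against the summed FPKM of 15 erythroid progenitor genes in the 8 libraries (filled, flow-through; open, IL-18Rαhi; lines join a mouse). Flow-through replicate 1 lies at 3879 on the horizontal axis, and the IL-18Rαhi libraries lie between 254 and 1114.

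*Dnmt3a*, the other de novo enzyme (chromosome 12, 3806007 to 3914443, plus strand), did not pass the test. It was at 11.0, 12.0, 11.0 and 11.8 FPKM in flow-through libraries and 10.5, 11.9, 14.4 and 12.1 in IL-18Rαhi libraries, and the fractions overlapped. Its log2 difference was 0.08 (95% interval -0.14 to 0.30), higher in 2 of 4 mice. The ratio of *Dnmt3a* to *Dnmt3b* was 1.71 ± 0.207 in flow-through libraries and 3.10 ± 0.346 in IL-18Rαhi libraries, higher in 4 of 4 mice and with no overlap. A ratio within a library does not depend on its scaling. The exact permutation test over the 70 arrangements gave two-sided p = 0.0286, the smallest that 4 against 4 allows, and 0.0571 after adjustment over the 4 ratios compared. A ratio at that smallest p cannot pass the adjustment unless most of the 4 ratios reach it, so the adjusted p does not decide. The arrangements also do not use the pairing by mouse. A ratio shows that the genes changed unequally, not which of them moved.

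*Dnmt1*, the maintenance enzyme (chromosome 9, 20907209 to 20959888, minus strand), was higher within every mouse. Its FPKM were 77.1, 60.9, 66.5 and 57.2 in flow-through libraries and 82.7, 84.2, 89.5 and 70.8 in IL-18Rαhi libraries. The fractions overlapped, because flow-through replicate 1 lay above IL-18Rαhi replicate 4. The means were 65.4 ± 8.70 and 81.8 ± 7.89, a log2 difference of 0.32 (SE 0.11) with limma adjusted p = 0.0626 without the block and 0.0161 with it. Without flow-through replicate 1 it passed without a block (0.40, adjusted p = 0.0176), and the blocked call was lost without mouse 2, 3 or 4 (adjusted p = 0.0541, 0.0829 and 0.0588). On the T-cell scale its log2 difference was -0.063, which is 0.31 above the median of all genes.

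Of the TET oxidases, *Tet2* passed with the mouse as a block and *Tet1* and *Tet3* did not pass either way. *Tet2* (chromosome 3, 133463679 to 133545139, minus strand) was at 3.63, 7.30, 6.68 and 7.51 FPKM in flow-through libraries and 6.21, 8.17, 8.15 and 9.17 in IL-18Rαhi libraries. It was higher in 4 of 4 mice while the fractions overlapped, and flow-through replicate 1 was its lowest library. Its log2 difference of 0.32 had limma adjusted p = 0.267 without the block and 0.0421 with it, and the call was lost without any 1 mouse (adjusted p = 0.0780, 0.0508, 0.105 and 0.0971 without mouse 1 to 4). Without flow-through replicate 1 the difference was 0.12 (adjusted p = 0.517). On the T-cell scale the difference was -0.0087, which is 0.36 above the median of all genes.

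*Tet3* (chromosome 6, 83362373 to 83459084, minus strand) was at 9.78, 10.3, 10.6 and 12.4 FPKM in flow-through libraries and 9.78, 12.3, 13.1 and 12.1 in IL-18Rαhi libraries, with a log2 difference of 0.12 (95% interval -0.13 to 0.37). *Tet1* (chromosome 10, 62804570 to 62908996, minus strand) was the lowest of the 10 genes. Its FPKM were 0.857, 1.73, 1.19 and 2.02 in flow-through libraries and 0.980, 1.29, 1.39 and 1.48 in IL-18Rαhi libraries, with a log2 difference of -0.08 (95% interval -0.48 to 0.32). The fractions overlapped for both genes and each was higher in 2 of 4 mice. The ratio of *Tet2* to *Tet3* was 0.579 ± 0.145 and 0.670 ± 0.0622 (exact permutation p = 0.343, adjusted 0.4), a log2 difference of 0.25 that was 0.047 without flow-through replicate 1.

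*Ezh1* (chromosome 11, 101191115 to 101226463, minus strand) was higher in every mouse. Its FPKM were 11.7, 17.9, 14.5 and 17.5 in flow-through libraries and 20.0, 21.7, 21.3 and 23.8 in IL-18Rαhi libraries. Every IL-18Rαhi library lay above every flow-through library, and flow-through replicate 1, with the lowest T-cell identity sum, was the lowest. The means were 15.4 ± 2.89 and 21.7 ± 1.58, a log2 difference of 0.49 (SE 0.13, limma adjusted p = 0.0278). The call was lost without flow-through replicate 3 (adjusted p = 0.0752) or IL-18Rαhi replicate 2, 3 or 4 (0.0686, 0.0625 and 0.0788), but with the mouse as a block it held without each mouse in turn. *Ezh1* ran opposite to the erythroid sums, whose part was not tested. On the T-cell scale the difference was 0.12 (adjusted p = 0.547), which is 0.49 above the median of all genes.

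*Ezh2* (chromosome 6, 47530139 to 47595341, minus strand) was at 71.0, 57.4, 72.9 and 53.8 FPKM in flow-through libraries and 82.6, 70.3, 80.2 and 67.0 in IL-18Rαhi libraries. It was higher within 4 of 4 mice, but mice differed by more than the fractions did and the fractions overlapped. Its log2 difference of 0.24 (SE 0.12) had limma adjusted p = 0.176 without the block and 0.0210 with it, and the blocked call was lost without mouse 2, 3 or 4 (adjusted p = 0.0635, 0.0597 and 0.0934). On the T-cell scale the difference was -0.15, which is 0.22 above the median of all genes. The ratio of *Ezh2* to *Ezh1* was 4.35 ± 1.46 in flow-through libraries and 3.49 ± 0.577 in IL-18Rαhi libraries, lower in 3 of 4 mice (exact permutation p = 0.4). The log2 difference of this ratio was -0.27, and it was -0.091 without flow-through replicate 1, -0.42 without flow-through replicate 4 and -0.17 without IL-18Rαhi replicate 4.

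*Suv39h1*, on the X chromosome (8061171 to 8074760, minus strand), did not pass. Its FPKM were 51.2, 35.8, 42.3 and 35.8 in flow-through libraries and 44.3, 36.5, 39.6 and 32.7 in IL-18Rαhi libraries, lower in 3 of 4 mice. The fractions overlapped, and the log2 difference was -0.10 (95% interval -0.41 to 0.22).

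*Suv39h2* (chromosome 2, 3455815 to 3475031, minus strand) was at 7.42, 4.85, 5.83 and 4.68 FPKM in flow-through libraries and 5.66, 3.59, 4.71 and 2.96 in IL-18Rαhi libraries. It was lower within 4 of 4 mice, with mouse 1 highest in both fractions and the fractions overlapping. Its log2 difference of -0.37 (SE 0.19) had limma adjusted p = 0.180 without the block and 0.0151 with it, and the blocked call was lost without mouse 4 (adjusted p = 0.0638). *Suv39h2* also moved with the erythroid sums, and their part was not tested. Its exons overlap those of *Dclre1c*, a DNA repair nuclease gene on the opposite strand, and since the counting is not stated to use strand, their reads cannot be told apart there. *Dclre1c* was at 6.97 ± 0.910 and 6.83 ± 1.24 FPKM, a log2 difference of -0.03 (adjusted p = 0.875). The ratio of *Suv39h1* to *Suv39h2* was 7.29 ± 0.308 and 9.37 ± 1.51, higher in 4 of 4 mice with no overlap (exact permutation p = 0.0286, adjusted 0.0571). Here too p was the smallest the test allows, so the adjusted p does not decide.

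**Figure D3:**
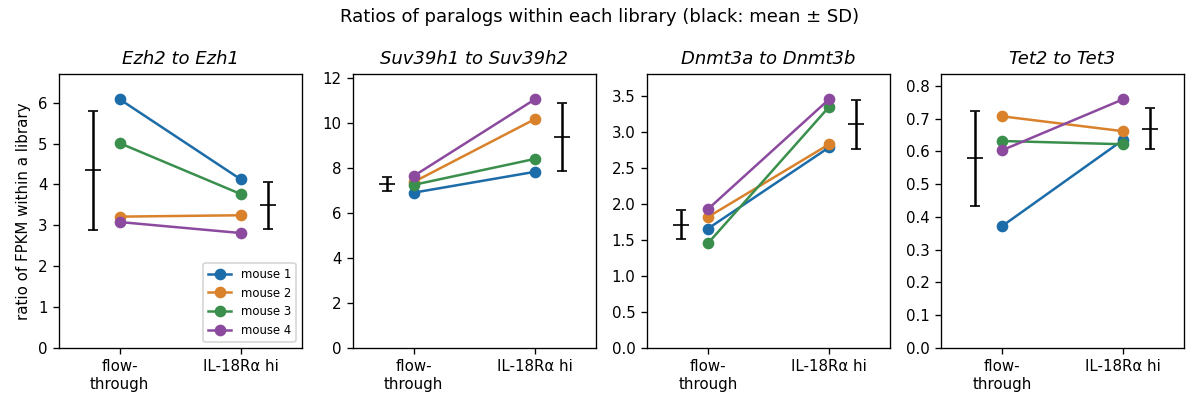
Ratios of FPKM between related enzymes in each library of the flow-through and the IL-18Rαhi fraction, a quantity that does not change with library scaling. The Dnmt3a to Dnmt3b ratio runs from 1.45 to 1.92 in flow-through libraries and from 2.78 to 3.45 in IL-18Rαhi libraries.

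**Figure D4:**
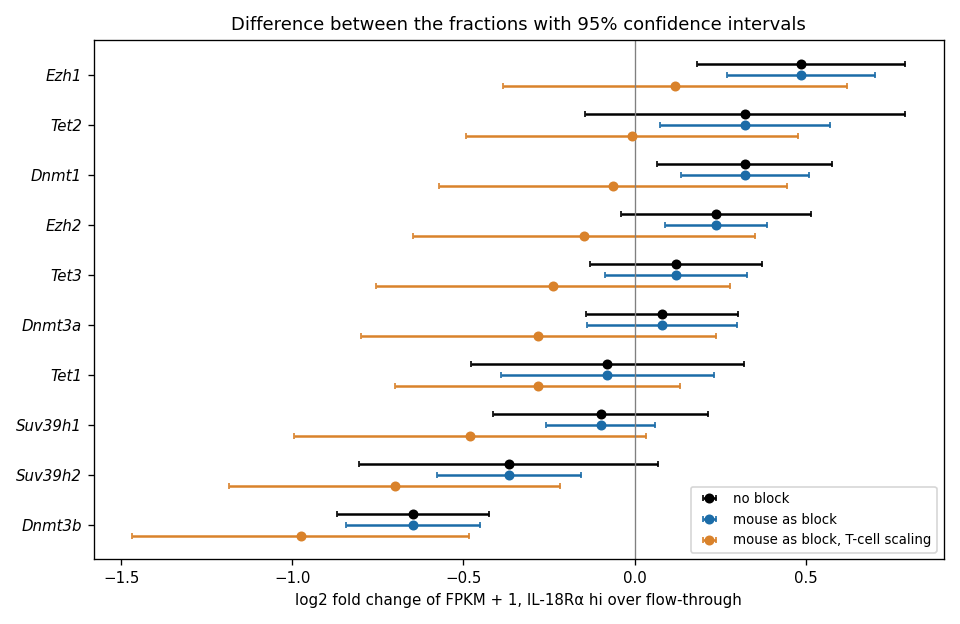
Log2 differences (IL-18Rαhi fraction minus flow-through) of the 10 genes without a block, with the mouse as a block, and with the block on the T-cell scale, with 95% intervals. Dnmt3b lies below 0 at -0.65 on the library-total scale and at -0.98 on the T-cell scale with the mouse as a block. On the T-cell scale the median of all genes was -0.37, and the difference of Dnmt3b from that median was -0.61.

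In FPKM, which is per transcript length, the genes spanned a wide range of levels in both fractions. In the flow-through, *Dnmt1* and *Ezh2* were highest and overlapped each other, *Suv39h1* came next, *Ezh1*, *Dnmt3a* and *Tet3* were close together, *Dnmt3b*, *Tet2* and *Suv39h2* overlapped, and *Tet1* was lowest. In the IL-18Rαhi fraction, *Ezh1* stood above *Dnmt3a* and *Tet3*, and *Tet2* stood above *Suv39h2* and *Dnmt3b*, which overlapped. The 10 genes together summed to 208.9 to 250.4 FPKM in flow-through libraries and 235.6 to 276.7 in IL-18Rαhi libraries.

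The partners and opponents of these enzymes were read from 5 lists of 75 genes, of which 69 were tested. Of these, 5 rose and 6 fell, against 14.1% and 13.7% of all genes. In the blocked fit 8 rose and 11 fell, against 22.2% and 22.7%. The median log2 difference was 0.02, against -0.02 over all genes.

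Of 19 genes that support or oppose DNA methylation, 0 rose and 4 fell, against 14.1% and 13.7% of all genes. None was higher at an unadjusted p under 0.05 (limma). With the mouse as a block, 1 rose and 8 fell, against 22.2% and 22.7% of all genes. *Idh2*, a mitochondrial enzyme that makes the 2-oxoglutarate TET enzymes use, was at 67.4 ± 5.17 FPKM in flow-through libraries and 40.4 ± 4.98 in IL-18Rαhi libraries (log2 difference -0.73, SE 0.10, limma adjusted p = 0.0020). *Apex1*, a base excision repair nuclease, fell from 48.1 ± 6.74 to 28.0 ± 3.50. *Mbd3*, a subunit of the NuRD repressor complex, fell from 92.5 ± 12.6 to 73.7 ± 4.27, a call lost on the T-cell scale (limma adjusted p = 0.0896). *Mbd2*, a methyl-CpG reader, was at 112.4 and 126.1 and did not pass. *Uhrf1*, which brings DNMT1 to replicated DNA and is named here after its values were seen, was at 85.7 ± 20.0 and 105.1 ± 14.9 (limma adjusted p = 0.205, and 0.0133 with the block).

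Of the 11 PRC2 partners tested, 2 rose and 0 fell, against 14.1% and 13.7% of all genes. None was lower at an unadjusted p under 0.05 (limma). *Phf19*, an accessory subunit that helps PRC2 bind chromatin, rose from 6.15 ± 0.980 to 10.8 ± 1.17 FPKM (log2 difference 0.73, SE 0.12, limma adjusted p = 0.0043). *Aebp2*, an accessory subunit of another PRC2 form, rose from 57.2 ± 6.35 to 85.0 ± 5.15 (log2 difference 0.57). Both calls were lost on the T-cell scale, with log2 differences of 0.38 for *Phf19* (limma adjusted p = 0.156) and 0.18 for *Aebp2* (0.430). The core subunits *Eed* (46.1 and 52.1) and *Suz12* (53.4 and 56.3), named after their values were seen, did not pass, and neither did the histone-binding subunits *Rbbp4* and *Rbbp7*.

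Of 14 erasers and readers of H3K27 methylation, 2 rose and 1 fell, against 14.1% and 13.7% of all genes. The Polycomb PRC1 subunits *Pcgf2* and *Bmi1*, which are paralogs, moved in opposite directions. *Pcgf2* rose from 2.42 ± 0.749 to 5.18 ± 0.792 FPKM, and *Bmi1* fell from 19.1 ± 1.62 to 14.2 ± 0.883. *Cbx6*, a chromodomain reader, rose from 15.2 ± 0.900 to 18.3 ± 0.687, although its log2 difference was -0.11 on the T-cell scale (limma adjusted p = 0.698).

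Of 11 other H3K9 methylation genes, 0 rose and 1 fell, against 14.1% and 13.7% of all genes. At an unadjusted p under 0.05 (limma), 2 were higher and 2 lower. *Trim28*, the corepressor that recruits SETDB1, fell from 207.8 ± 26.96 to 144.0 ± 3.27 FPKM (log2 difference -0.52, SE 0.10, limma adjusted p = 0.0070). *Ehmt2*, which encodes the H3K9 dimethylase G9a, was at 75.9 and 86.5 (limma adjusted p = 0.0824, and 0.0434 with the block). Of 14 H3K9 erasers and readers, 1 rose and 0 fell, against 14.1% and 13.7% of all genes. None was lower at an unadjusted p under 0.05 (limma). *Phf8*, a demethylase, was the 1 that rose, from 12.7 ± 1.32 to 18.0 ± 0.942. Its log2 difference on the T-cell scale was 0.10 and the call was lost (limma adjusted p = 0.667). The heterochromatin protein genes *Cbx1* and *Cbx3* did not pass.

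**Figure D5:**
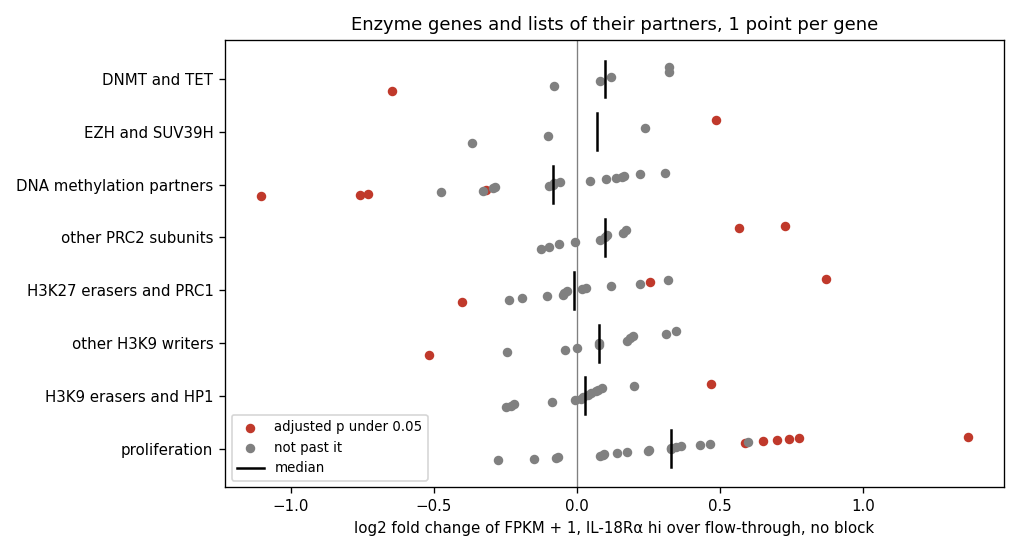
Log2 differences (IL-18Rαhi fraction minus flow-through) of the genes in each list. The medians run from -0.08 for the DNA methylation partners to 0.33 for the proliferation genes.

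Several of the 10 genes are known to follow the cell cycle, so proliferation genes were read beside them. Of 24 such genes, 6 rose and 0 fell, with none lower at an unadjusted p under 0.05 (limma), against 14.1% and 13.7% of all genes. In the blocked fit 14 rose, against 22.2%. The list had a median log2 difference of 0.33 (-0.05 on the T-cell scale, where all genes had a median of -0.37). *Top2a*, a topoisomerase of dividing cells, rose from 134.8 ± 16.9 to 225.8 ± 27.2 FPKM, a call lost on the T-cell scale (limma adjusted p = 0.306), and *E2f2*, a cell cycle transcription factor, from 23.8 ± 1.58 to 63.2 ± 5.52. *Pcna* and *Rrm2*, of DNA replication and nucleotide synthesis, did not pass without the block (limma adjusted p = 0.270 and 0.0931). The part of the proliferation genes in the results above was not tested.

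The closest partner of each gene was taken as the one, of 93 listed genes, whose within-mouse log2 differences in the 4 mice lay nearest on average. For *Ezh2* this was *Pcna*, a DNA replication clamp (mean distance 0.040 on the log2 scale), and for *Dnmt1* it was *Aurkb*, a mitotic kinase (0.067). For *Suv39h1* it was *Mcm2*, of the replicative helicase (0.060). For *Dnmt3b* it was *Idh2* (0.082) and for *Ezh1* it was *Aebp2* (0.099). These rest on 4 mice and are a description.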

How the data were processed

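The authors sequenced RNA of each fraction from 4 mice and deposited 1 table of FPKM per gene and library. Per the submitters' processing notes, TopHat aligned reads to mm10 and Cufflinks 2.1.1 computed FPKM. The annotation release is not given in the sources used here, and 236 running numbers of the table are not used here. Counts were not used, so FPKM were tested with limma 3.58.1 (R 4.3.3, trended variance) on log2(FPKM + 1), for genes averaging 1 FPKM or more, with Benjamini-Hochberg adjusted p under 0.05. A fold on this scale understates changes of low genes.

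The labels give each library a fraction and a number but name no mouse, and both fractions of a number were taken as 1 mouse. Deviations from the fraction means correlated at 0.308 to 0.660 within mice. The highest correlation with a library of another number was 0.19 to 0.41, below the same-number value in each mouse. The mouse was therefore also fitted as a block. The 4 ratios were tested by exact permutation. The test was tried on simulated data. Depth was estimated from FPKM below 0.2 of transcripts of at least 1500 bases. Named list genes were up to 4 past the threshold with the largest difference and the 2 highest others in each list. The values of 1 gene this rule names are not reported here. The 10 genes and the lists were chosen with earlier results of these data known. Alternatives were other pseudocounts (0.1 and 0.5), filters (none, or a mean of 5 FPKM), scalings (T-cell identity genes, median of ratios), the block, and leaving out each library. Gene coordinates are from GENCODE M21 and upstream sequences from RefSeq (GRCm38.p6, the mm10 assembly), both matched by symbol for all 10 genes.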

Additional observations from a re-analysis of the deposited data

How the results depend on the processing

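The fall of *Dnmt3b* held under every alternative run, and leaving out 1 library at a time gave log2 differences of -0.69 to -0.60 (0.37 to 0.56 for *Ezh1*). The replicate block gave 4 of the 10 genes higher and 2 lower, 2705 and 2763 of all genes, and 8 and 11 of the listed partners. Without a filter on low values, and on the T-cell scale, 0 of the 10 were higher, and leaving out 1 library gave 0 to 2. Of the 22789 genes tested without a filter, 1669 were higher and 1283 lower. On the T-cell scale 508 of all genes and 1 listed partner were higher, and with the block, a fit chosen after seeing the data, 579 of all genes were higher and 2709 lower, with 0 of the 10 and 0 partners higher and 2 and 10 lower. In further fits chosen after seeing the data, the block without mouse 1 gave 3 of the 10 higher and 2 lower, with 9 and 12 partners. Of all genes, 2544 were higher and 2468 lower in that fit. Without mouse 2 and without mouse 3 the block gave 2 of the 10 lower each, and 10 partners lower without mouse 2. Of all genes, 2388 were higher and 2414 lower without mouse 2, and 1866 and 1739 without mouse 3. The T-cell scale with the block and without mouse 1 gave 0 of the 10 higher and 2 lower, 1459 and 3510 of all genes, and 3 and 15 partners. Leaving out 1 library gave 1107 to 1813 higher and 939 to 1780 lower of all genes, and 4 to 6 and 5 to 8 partners. On the T-cell scale, with and without the block, the sign turned for *Dnmt1* (-0.063), *Dnmt3a* (-0.28), *Tet2* (-0.0087), *Tet3* (-0.24) and *Ezh2* (-0.15), where the median of all genes was -0.37, but without mouse 1 in the blocked fit on that scale *Dnmt1* (0.23), *Tet2* (0.07), *Tet3* (0.0076) and *Ezh2* (0.08) kept their sign. *Dnmt3a* also turned with the block without mouse 3 (-0.012) and on the T-cell scale with the block and without mouse 1 (-0.027), *Tet1* without flow-through replicate 4 (0.029, with a range of -0.20 to 0.029 leaving out 1 library) and *Suv39h1* without flow-through replicate 1 (0.0076, with a range of -0.17 to 0.0076). The exact sign-flip test over the 4 pairs cannot reach the threshold, so it gave no call for the ratios of *Suv39h1* to *Suv39h2* (log2 difference 0.35, 0.26 to 0.43 leaving out 1 library) and *Dnmt3a* to *Dnmt3b* (0.86, 0.78 to 0.92). The causes were not tested. *Tet1* lay near 1 FPKM, where few fragments limit precision.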
